A study of Mus musculus with 6 samples.

Results

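The proliferation genes are a list of 40 mouse genes whose transcripts are made by cells that copy their DNA and divide. They were chosen by symbol, from the entry into S phase to the separation of chromosomes, and were matched to the Ensembl identifiers of the count files. All 40 were found among the 39179 genes of the files, and all 40 had at least 1 CPM (the count scaled to the total on genes) in 3 or more libraries, the filter that left 14723 genes for testing. The libraries were made from the cochlear sensory epithelium, of the hearing organ, and from the vestibular sensory epithelium, of the balance organs. Both came from newborn (P0) wild-type C57Bl/6J mice, males and females together, with 3 libraries for each tissue and no treatment in either. Tissue from 20 cochleae or 20 vestibules was pooled, and 450 ng of RNA went into a stranded mRNA library. Neither the labels nor the methods tell whether the 3 libraries of a tissue came from separate dissections, so the p-values measure the spread between these libraries, which may be technical.

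A cell that enters the cycle activates the E2F transcription factors, which switch on cyclin E, the MCM helicase that opens the DNA, and the enzymes that supply and join nucleotides. Later, a complex of MuvB proteins with B-Myb and FOXM1 switches on the cyclins, kinases, kinetochore proteins and motors of mitosis. In the newborn mouse inner ear most hair cells and supporting cells of the cochlea have left the cell cycle, while the vestibular organs still add hair cells after birth, and connective tissue, vessels, glia and blood-derived cells of the dissected tissue can divide as well. The libraries are of whole tissue, in which fewer dividing cells and less of each transcript in a cell cannot be told apart.

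As a list, the proliferation genes differed little between the tissues. Of the 40 members, 2 were higher in the cochlea and 0 were higher in the vestibule in the quasi-likelihood test of edgeR, at a threshold of 0.05 on the p adjusted after Benjamini and Hochberg (FDR), and both belong to the MCM helicase, Mcm2 and Mcm6. That is 5% of the members, beside 27.4% of all tested genes called in either direction, 11.6% called higher in the cochlea and 15.8% called higher in the vestibule (1711 and 2325 genes, or 1251 and 2754 with library sizes alone). At an FDR of 0.1 that requires a 1.3-fold change, 7 members (17.5%) were higher in the cochlea, where 14.5% of all genes were, and 1 member (2.5%) in the vestibule, where 19% were. With 1 library left out, 0 to 5 members were higher in the cochlea, beside 6.5% to 12.8% of all genes. In the vestibule 0 to 3 members were higher, beside 9.43% to 18.6%. At an unadjusted p under 0.05 there were 9 members, 7 higher in the cochlea and 2 higher in the vestibule, and 38.9% of all genes. The 3 libraries of one tissue lay entirely above those of the other for 7 members on the cochlear side, where 19.5% of all genes did so, and for 2 members on the vestibular side, where 22.3% did. For the other 31 members the libraries of the tissues overlapped.

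The small differences leaned to the cochlea. The log2 fold change, given throughout as vestibule minus cochlea, had a median of -0.14 over the members, with quartiles of -0.29 and -0.01, and a median of 0.01 over the other 14683 genes, with quartiles of -0.27 and 0.39. It was below 0 for 30 members (75%) and for 49.4% of the others. With library sizes alone in place of TMM scaling the median of all genes moved to 0.13, and the members then split evenly, with 20 of 40 below 0 and 30 of 40 below that median. The lean rested in part on cochlea library 2, without which 21 of 40 members were below 0 with a median of -0.02. Without cochlea library 3 there were 33 with a median of -0.28, without vestibule library 1 there were 25 with a median of -0.09, and the other 3 omissions left 29 to 31. The precision of the members was near that of all genes, with a median standard error (SE) of 0.20 against 0.18 on the log2 scale. Of the 38 members not called, 33 had a 95% interval that lay within 1 of 0 on both sides, a bound wider than the change of either called member. The interval included 0 for 31 of the 38.

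**Figure D1:**
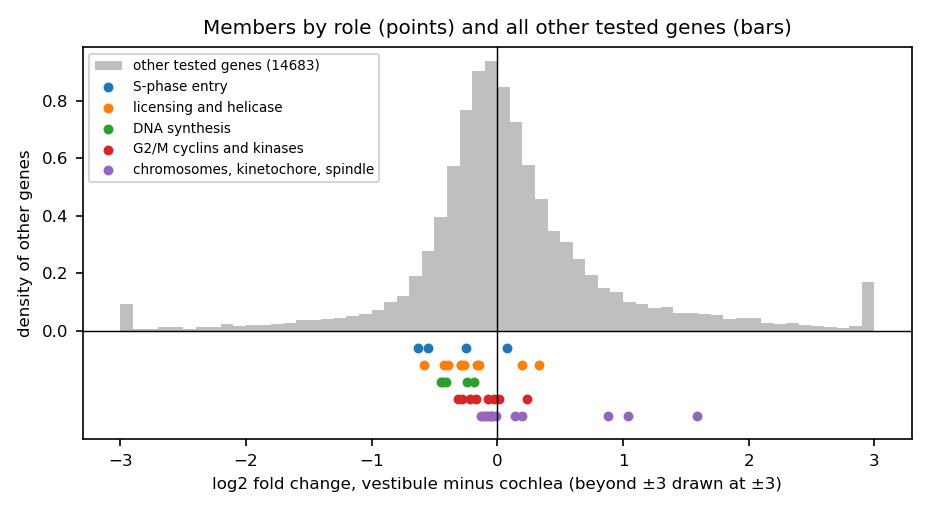
Grey bars give the distribution of the log2 fold change (vestibule minus cochlea) over the 14683 other tested genes, and points below the axis give the 40 members in 5 rows by role. Members of the first 3 roles lie mostly left of 0, and 3 points of the chromosome, kinetochore and spindle row (Cenpe, Cenpf and Mki67) lie to the right of the rest.

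Summed over the 40 members, the TMM-scaled level was 850, 913 and 694 CPM in cochlea libraries 1, 2 and 3, and 770, 764 and 706 CPM in vestibule libraries 1, 2 and 3. The ranges overlapped, since cochlea library 3 was the lowest of the 6. The log2 ratio of the mean sums was -0.13, or -0.20 without Mki67, Cenpf and Cenpe. It moved to -0.053 without cochlea library 2, -0.24 without cochlea library 3, -0.078 without vestibule library 3 and -0.0081 with library sizes alone. Cochlea library 3 was the lowest cochlear library for 32 of the 40 members, while on the vestibular side library 1 was lowest for 19, library 3 for 18 and library 2 for 3. Before scaling, the members took 0.068% to 0.0841% of the counts on genes in a library.

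**Figure D2:**
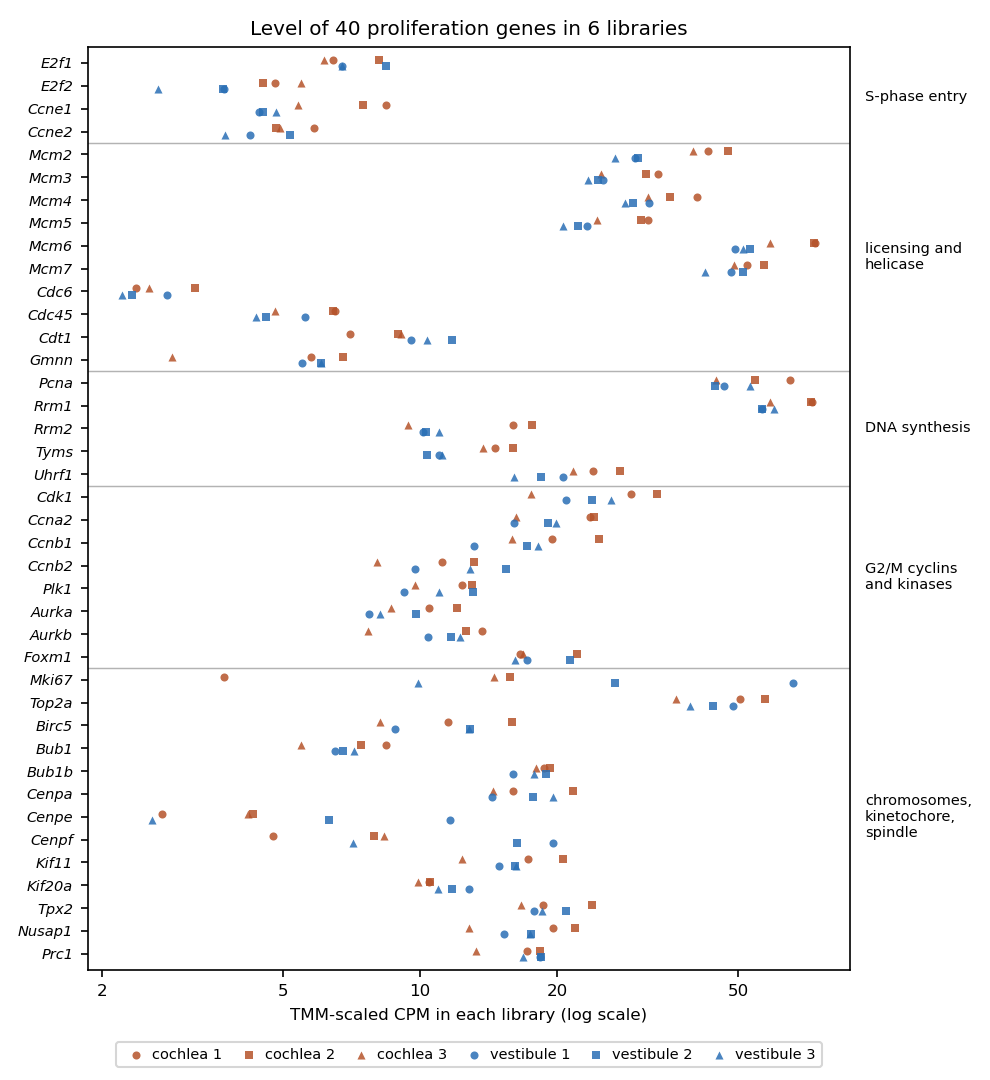
Each row is 1 of the 40 members, grouped by role, and each point is its TMM-scaled CPM in 1 of the 6 libraries on a log axis, with the 3 cochlear libraries in orange and the 3 vestibular ones in blue. For most members the colours mix, the 3 cochlear points of Mcm2 and of Mcm6 lie right of the vestibular ones, and Mki67, Cenpe and Cenpf spread most widely.

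Compared per length, the 5 most abundant members were genes of DNA replication, and so was the least abundant. Averaged over the 6 libraries of the authors' matrix, the members ran from 0.495 RPKM (reads scaled to gene length and library total) for Cdc6 to 21.4 RPKM for Pcna, with a median of 4.20 RPKM. Pcna, the sliding clamp of DNA polymerases, was followed by Mcm6 at 20.6, Rrm1 at 15.7, Mcm7 at 11.3 and Mcm2 at 10.7 RPKM. The 4 genes of S-phase entry lay low, between 0.85 and 2.27 RPKM, and the 8 cyclins, kinases and their regulator between 3.35 and 7.64 RPKM.

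Promoters are shown for the called S-phase members and for the mitotic members with the largest log2 fold changes, so that the motifs of the E2F and MuvB systems can be seen in place. The windows are RefSeq's for GRCm38.p6, from 250 bases before the transcription start to 50 after it, read 5′ to 3′ along the gene. Capitals mark the CHR (cell cycle genes homology region, searched as TTTGAA and TTCGAA), the CCAAT box (CCAAT) and the E2F core (TTGGCGC and TTCGCGC), each on both strands. Mcm2 (chr6:88898731-88899030, minus strand) and Mcm6 (chr1:128359656-128359955, minus strand) are the called members, and Mki67 (chr7:135716330-135716629, minus strand) and Cenpf (chr1:189688037-189688336, minus strand) had the largest log2 fold changes among the mitotic members and were not called at an FDR of 0.05 in that test.
Mcm2: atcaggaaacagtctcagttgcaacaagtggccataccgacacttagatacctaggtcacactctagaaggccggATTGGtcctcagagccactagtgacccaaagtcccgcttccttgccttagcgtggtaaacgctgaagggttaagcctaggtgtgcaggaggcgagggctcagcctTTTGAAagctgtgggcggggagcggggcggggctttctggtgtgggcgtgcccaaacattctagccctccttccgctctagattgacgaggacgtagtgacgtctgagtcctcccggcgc
Mcm6: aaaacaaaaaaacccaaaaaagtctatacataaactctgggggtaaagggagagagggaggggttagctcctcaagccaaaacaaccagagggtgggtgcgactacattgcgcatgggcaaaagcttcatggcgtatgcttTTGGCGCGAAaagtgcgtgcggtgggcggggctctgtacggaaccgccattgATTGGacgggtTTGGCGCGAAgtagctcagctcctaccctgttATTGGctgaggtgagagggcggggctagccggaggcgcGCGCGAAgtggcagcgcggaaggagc
Mki67: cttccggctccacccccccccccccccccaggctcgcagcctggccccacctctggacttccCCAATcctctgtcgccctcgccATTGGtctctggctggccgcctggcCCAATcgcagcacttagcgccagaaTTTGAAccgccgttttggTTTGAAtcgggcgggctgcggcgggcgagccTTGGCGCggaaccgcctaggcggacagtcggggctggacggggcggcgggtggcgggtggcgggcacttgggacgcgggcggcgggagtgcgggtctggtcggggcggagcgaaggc
Cenpf: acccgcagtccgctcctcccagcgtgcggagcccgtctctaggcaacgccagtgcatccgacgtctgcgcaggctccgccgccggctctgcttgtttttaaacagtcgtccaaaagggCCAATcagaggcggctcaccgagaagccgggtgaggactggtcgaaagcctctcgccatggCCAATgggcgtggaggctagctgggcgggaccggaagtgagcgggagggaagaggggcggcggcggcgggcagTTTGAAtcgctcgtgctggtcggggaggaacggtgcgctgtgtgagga

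The Mcm2 window held a CHR and a CCAAT box, with no E2F core. The Mcm6 window held 5 matches to the E2F core, 4 of them as overlapping pairs of both forms on opposite strands, and 2 CCAAT boxes. In the Mki67 window 3 CCAAT boxes stood before 2 CHR matches and 1 E2F core, and in the Cenpf window 2 CCAAT boxes stood before a CHR whose first base lies 2 bases after the start. Windows were given for 32 of the 40 members, 36 windows in all, since 4 members have more than 1. A CHR was in 47.2% of the member windows and in 19.2% of all 32851 windows of the table, a CCAAT box in 80.6% and 37.4%, and an E2F core in 27.8% and 3.89%. The split by role went in opposite directions. Among the 19 windows of S-phase members 21.1% held a CHR and 36.8% an E2F core, and among the 17 windows of mitotic members 76.5% held a CHR and 17.6% an E2F core. These are matches of letters, and binding was not measured.

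**Figure D3:**
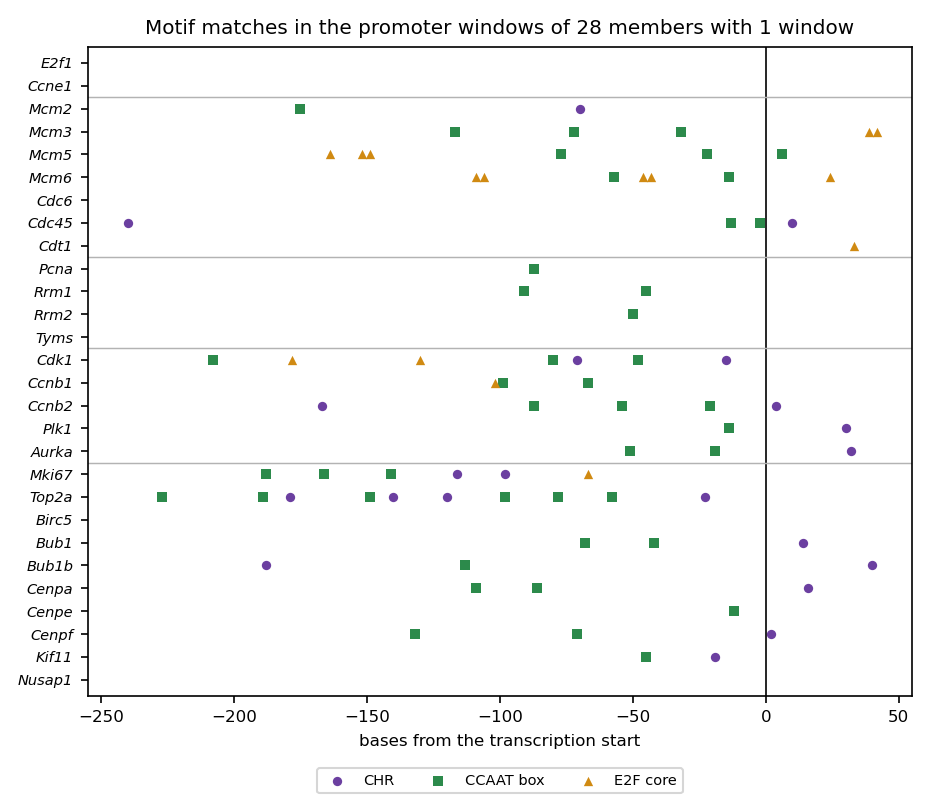
Each row is 1 of the 28 members with exactly 1 promoter window, in the order of the roles, and each point is the first base of a motif match on either strand, placed by its distance in bases from the transcription start. CHR matches (purple) lie mostly in the mitotic rows, some near the start and others well before it, CCAAT boxes (green) lie in rows of every role but S-phase entry, and E2F cores (yellow) appear mostly in the Mcm rows.

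The 10 genes of replication licensing and the helicase held both calls. Mcm2, a subunit of the MCM helicase ring that is loaded at replication origins (chromosome 6, 88883474 to 88898780, minus strand, GRCm38), stood at 42.9, 47.6 and 39.7 CPM in the cochlear libraries and at 29.8, 30.1 and 26.8 CPM in the vestibular ones. The tissues did not overlap, and the highest vestibular library was well below the lowest cochlear one. The means were 43.4 ± 3.95 and 28.9 ± 1.81 CPM (SD, n = 3 each), a log2 fold change of -0.59 (SE 0.13, FDR 0.00957 in the edgeR test), or 1.50-fold higher in the cochlea. Without vestibule library 2 the value was -0.60 and the call was lost. Its neighbor in the ring Mcm6 (chromosome 1, 128331590 to 128359664, minus strand), whose promoter carries the repeated E2F core shown above, stood at 73.8, 73.2 and 58.8 CPM in the cochlea and at 49.3, 53.1 and 51.3 CPM in the vestibule. Here too the libraries did not overlap, although cochlea library 3 lay closer to the vestibule than to the other cochlear libraries. The log2 fold change was -0.42 (SE 0.13, FDR 0.0439 by the same test), or 1.34-fold higher in the cochlea. This call was lost when any library but cochlea 3 was left out, with values from -0.37 to -0.43, with library sizes alone, where the value was -0.30, with upper quartile scaling (-0.41) and without the filter on low counts (-0.44).

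The other 4 subunits of the ring had values below 0 and none was called at an FDR of 0.05. Mcm5 stood at 31.7, 30.6 and 24.4 CPM in the cochlea and 23.3, 22.3 and 20.6 CPM in the vestibule, with no overlap and a log2 fold change of -0.39 (SE 0.15, FDR 0.082 in the edgeR test), and it was called without cochlea library 3. Mcm3 stood at 33.3, 31.4 and 25 CPM against 25.3, 24.6 and 23.4 CPM, with a log2 fold change of -0.29 (SE 0.15). In Mcm3 and in Mcm4 the overlap came from cochlea library 3, which lay just below vestibule library 1. Mcm4 stood at 40.6, 35.5 and 31.6 CPM against 31.8, 29.4 and 28.2 CPM, with a log2 fold change of -0.27 (SE 0.14). Mcm7, at 52.3, 57 and 49 CPM against 48.3, 51.2 and 42.2 CPM, differed least of the 6 subunits, with a log2 fold change of -0.16 (SE 0.13) and an interval of -0.45 to 0.13. All 6 subunits thus had values on the cochlear side, from -0.16 to -0.59, and none of the 6 changed sign under any alternative tried.

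The factors that load the helicase and hold it back did not go one way. Cdt1, which loads the ring together with Cdc6, stood at 7.02, 8.97 and 9.07 CPM in the cochlea and 9.54, 11.8 and 10.3 CPM in the vestibule, without overlap and on the vestibular side, with a log2 fold change of 0.33 (SE 0.18, interval -0.08 to 0.75). Gmnn, the inhibitor of Cdt1, had a log2 fold change of 0.20 (SE 0.30), and its value of 2.86 CPM in cochlea library 3 lay far below the range of 5.52 to 6.78 CPM in the other 5 libraries. Cdc6 and Cdc45, which joins the active helicase, had log2 fold changes of -0.14 (SE 0.23) and -0.28 (SE 0.21), with overlapping libraries in both.

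Of the 4 genes of S-phase entry, 0 were called by the edgeR quasi-likelihood test, and their median log2 fold change was -0.40. Ccne1, one of the 2 cyclin E genes that drive CDK2 at the start of S phase, stood at 8.4, 7.5 and 5.41 CPM in the cochlea and at 4.43, 4.51 and 4.84 CPM in the vestibule. The libraries did not overlap, and the log2 fold change of -0.63 (SE 0.22, FDR 0.0629 in the edgeR test) was the lowest of all 40 members. Ccne1 was called with DESeq2 (-0.65), with the exact test of edgeR (-0.63) and without cochlea library 3 (-0.80), and its FDR over the alternatives ran from 0.0173 to 0.208. E2f2, an activating E2F factor, was likewise without overlap, at 4.81, 4.52 and 5.48 CPM against 3.72, 3.7 and 2.66 CPM, with a log2 fold change of -0.55 (SE 0.22). Its relative E2f1 had a log2 fold change of 0.08 (SE 0.20) and Ccne2, the other cyclin E gene, one of -0.25 (SE 0.21), both with overlap. The members outside replication licensing, other than Pcna and Rrm1, were singled out after their values had been seen.

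All 5 genes of DNA synthesis and nucleotide supply had values below 0, with a median log2 fold change of -0.40, and 0 were called by the quasi-likelihood test. Tyms, the thymidylate synthase, stood at 14.6, 16 and 13.7 CPM in the cochlea and 11, 10.4 and 11.2 CPM in the vestibule, with no overlap and a log2 fold change of -0.44 (SE 0.15, FDR 0.0568 in the edgeR test). It was called with DESeq2 and with RLE scaling, at -0.46 in both. Uhrf1, which guides maintenance methylation to newly copied DNA, also had no overlap, with a log2 fold change of -0.40 (SE 0.16). Rrm2, the regulated subunit of ribonucleotide reductase, had about the same log2 fold change, -0.45 (SE 0.24), but its cochlear values of 16.1, 17.6 and 9.42 CPM spread around the vestibular 10.2, 10.3 and 11 CPM, and it was called without cochlea library 3, at -0.69. Rrm1, the large subunit of that enzyme, stood at 72.7, 72.2 and 58.7 CPM against 56.4, 56.3 and 59.9 CPM, with a log2 fold change of -0.24 (SE 0.13). Pcna, the most abundant member per length, stood at 65.1, 54.5 and 44.6 CPM against 46.5, 44.6 and 53.1 CPM, with a log2 fold change of -0.19 (SE 0.16, interval -0.56 to 0.18). In Rrm2, Rrm1 and Pcna, cochlea libraries 1 and 2 lay above every vestibular library and cochlea library 3 did not.

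The 8 genes of G2 and mitotic entry passed the test in no case. Their median log2 fold change was -0.12, they ran from -0.31 for Ccnb1 to 0.23 for Ccnb2, and the libraries overlapped for all 8. Cdk1, the kinase that drives mitosis, stood at 29.1, 33.2 and 17.5 CPM in the cochlea and 21, 23.8 and 26.3 CPM in the vestibule, so that the cochlea held both the highest and the lowest of the 6 libraries. For its partner Ccna2, cochlea library 2 was the highest and vestibule library 1 the lowest. Foxm1, the forkhead factor that activates mitotic genes, had a log2 fold change of -0.03 (SE 0.18), and the mitotic kinases Plk1, Aurka and Aurkb had values of -0.08 (SE 0.20), -0.28 (SE 0.19) and 0.02 (SE 0.23).

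The 13 genes of chromosomes, kinetochore and spindle comprised 10 with small differences and 3 with a wide spread between single libraries. The median log2 fold change of the 13 was -0.04. Top2a, the topoisomerase that untangles chromosomes, stood at 50.6, 57.3 and 36.5 CPM in the cochlea and 48.8, 44.1 and 39.2 CPM in the vestibule, with overlap and a log2 fold change of -0.13 (SE 0.18). The spindle checkpoint genes Bub1 and Bub1b had values of -0.06 (SE 0.21) and -0.08 (SE 0.14), the centromeric histone Cenpa -0.01 (SE 0.20), and Birc5, of the chromosomal passenger complex, -0.05 (SE 0.27). The motors and spindle factors Kif11, Tpx2, Nusap1 and Prc1 lay between -0.11 and 0.14 with overlapping libraries. Kif20a, a kinesin of cytokinesis, had no overlap, at 10.5, 10.6 and 9.9 CPM against 12.8, 11.8 and 10.9 CPM, and its log2 fold change of 0.20 (SE 0.15) was not called.

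**Figure D4:**
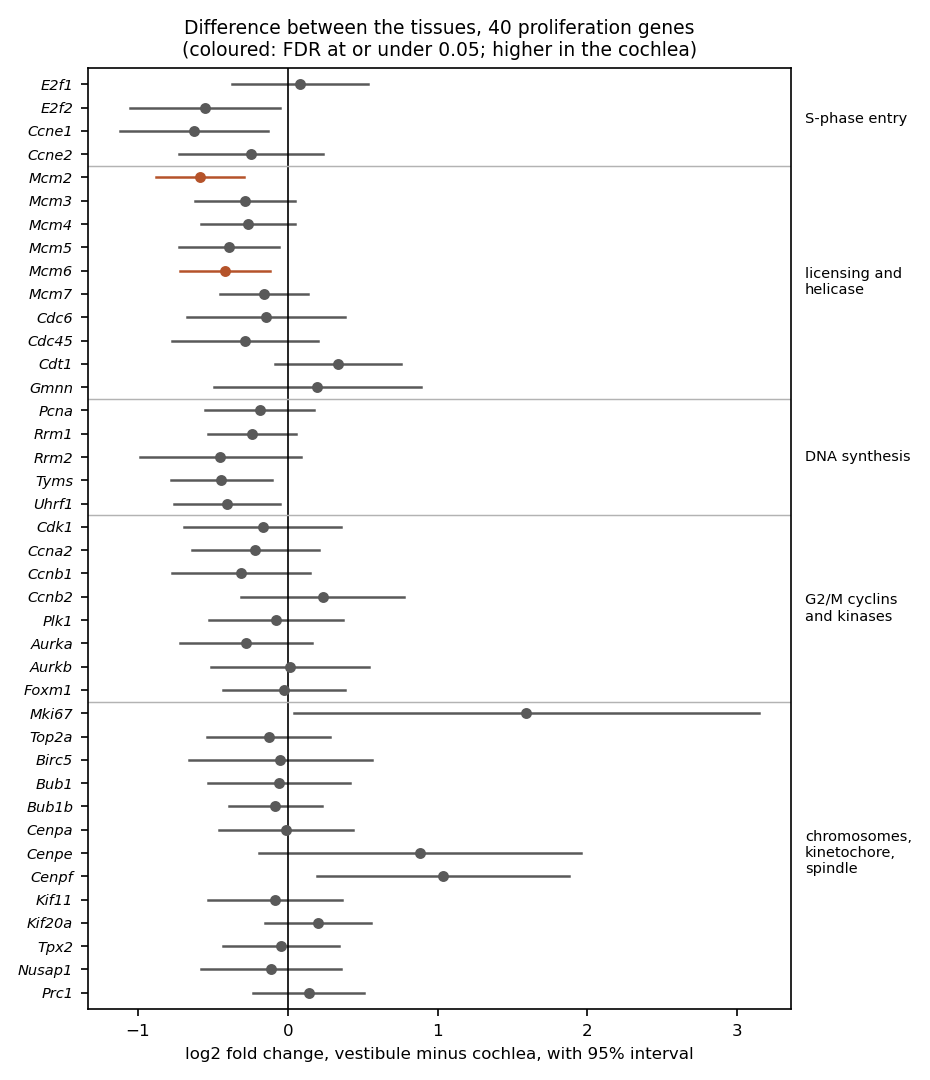
Points give the log2 fold change (vestibule minus cochlea) of each of the 40 members, grouped by role, and lines its 95% interval from the quasi-likelihood fit. The 2 called members, Mcm2 and Mcm6, are in orange left of 0, and the intervals of Mki67 (0.04 to 3.14), Cenpf and Cenpe are the widest.

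Mki67, which encodes the Ki-67 protein that coats mitotic chromosomes and is widely used to mark dividing cells, had 89, 419 and 416 read pairs in the cochlear libraries and 2411, 724 and 250 in the vestibular ones. At the same scale as above this was 3.72, 15.8 and 14.5 CPM against 65.9, 26.8 and 9.92 CPM. The highest library was 17.7 times the lowest, and vestibule library 3 lay below 2 of the cochlear libraries. The log2 fold change of 1.59 therefore had an SE of 0.68 and an FDR of 0.12 in the edgeR test. Cenpf, a kinetochore-associated protein of the nuclear matrix, followed the same order at its ends, with 4.77, 7.92 and 8.34 CPM in the cochlea and 19.6, 16.4 and 7.14 CPM in the vestibule, and a log2 fold change of 1.04 (SE 0.37, FDR 0.0692 by the same test). Cenpe, the kinetochore motor, stood at 2.72, 4.3 and 4.18 CPM against 11.6, 6.32 and 2.58 CPM, with a log2 fold change of 0.88 (SE 0.47). In all 3 genes vestibule library 1 was the highest of the 6 and vestibule library 2 the next, while vestibule library 3 fell within or below the cochlear range. Without vestibule library 3 all 3 were called, with log2 fold changes of 2.04, 1.37 and 1.28 for Mki67, Cenpf and Cenpe. That was 7.5% of the members, where 13.6% of all genes were higher in the vestibule. Without the filter on low counts Mki67 (1.58) and Cenpf were called (5% of the members, beside 11.3% of all genes). Cenpf was also called with DESeq2 and the exact test (1.04), as 2.5% of the members beside 16.8% and 17.3% of all genes.

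These 3 genes stand apart from the rest of the list in that spread. For the other 37 members the highest library was 1.2 to 2.37 times the lowest, with a median of 1.54, where the median of all tested genes was 1.71. They are also among the longest members, at 10.1 kb (Mki67), 11.3 kb (Cenpf) and 7.78 kb (Cenpe) beside a median of 3.54 kb, with the lengths that the authors' RPKM values imply. Over all tested genes the libraries also differed by gene length. Genes over 10 kb, the class in which cochlea library 1 and vestibule library 1 were again at the ends, had a median deviation from their own mean of -0.26, -0.09 and 0.19 on the log2 scale in cochlea libraries 1, 2 and 3 and of 0.28, 0.08 and -0.21 in vestibule libraries 1, 2 and 3. In the class from 8 to 10 kb vestibule library 3 was the lowest, at -0.15 beside -0.09 in cochlea library 1, and vestibule library 1 the highest, at 0.15. The deviations of Mki67 were much larger, at -1.96 in cochlea library 1 and 2.02 in vestibule library 1. The extremes of the other long members, Top2a (8.99 kb) and Prc1 (8.21 kb), differed 1.57-fold and 1.40-fold, and among the 2320 tested genes over 7 kb the median was 1.85, with 98.1% of them below Mki67, 90% below Cenpe and 88.4% below Cenpf. Of 14 genes over 7 kb in the wider replication and mitosis lists, which were looked up after this was seen, the extremes differed 1.51-fold to 4.38-fold, and vestibule library 1 was the highest in 7.

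**Figure D5:**
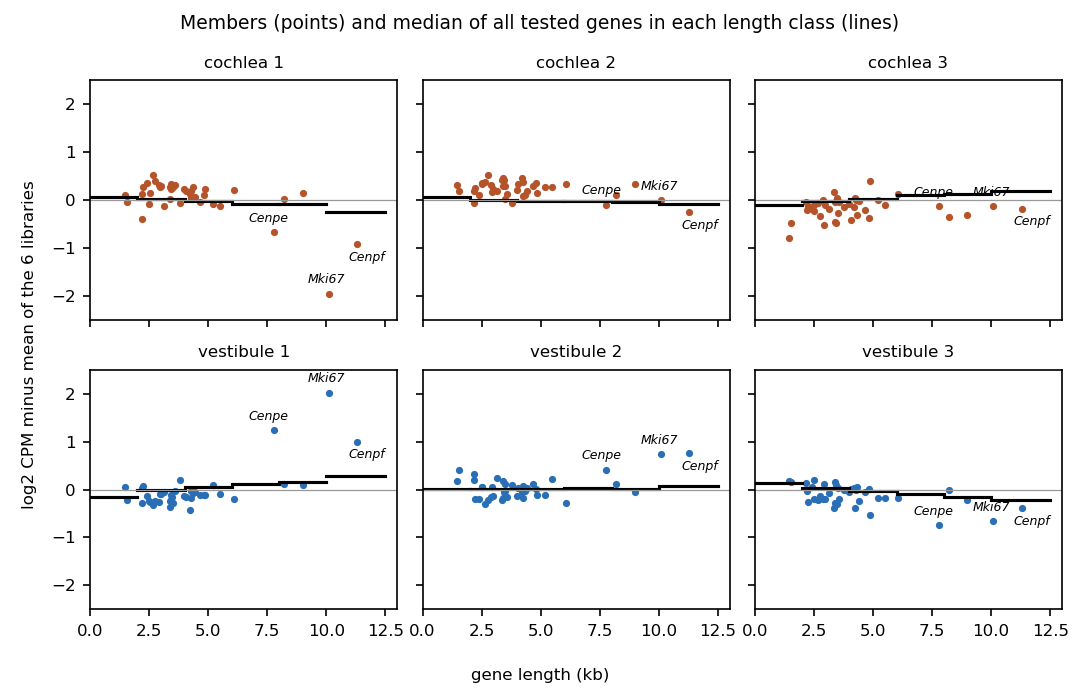
Each panel is 1 library, and each point 1 of the 40 members, with gene length in kb on the horizontal axis and its log2 CPM minus its mean over the 6 libraries on the vertical axis; black lines give the median of all tested genes in each length class. The lines slope down in cochlea library 1 and vestibule library 3 and up in vestibule library 1 and cochlea library 3, and Mki67, Cenpf and Cenpe lie far above the line in vestibule library 1 and far below it in cochlea library 1.

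Beside this stands the share of uniquely placed read pairs that fell on no annotated gene, which was 4.81% in cochlea library 1, the lowest, and 8.27% in cochlea library 3, the highest, with 6.47% to 7.77% in the vestibule. The part of RNA quality or of library preparation in the spread was not tested. When the length trend of each library was removed before the fit, an alternative chosen after the data had been seen, 7 members were called higher in the cochlea (E2f2, Ccne1, Mcm2, Mcm5, Mcm6, Tyms and Uhrf1) and 1 higher in the vestibule (Cenpf), which is 17.5% and 2.5% of the members beside 17.4% and 15.2% of all genes.

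The wider lists are read beside the 27.4% of all tested genes called in either direction (11.6% higher in the cochlea, 15.8% higher in the vestibule). Of 46 tested genes in a wider list of DNA replication, 2 were higher in the cochlea and 2 in the vestibule (8.7% called), with a median log2 fold change of -0.08. Cdca7, a partner of a chromatin remodeler, and Dck, the deoxycytidine kinase of nucleotide salvage, were higher in the cochlea, at -1.27 (SE 0.20) and -1.14 (SE 0.15). Clspn, a checkpoint adaptor at the fork, and Rfc1, of the clamp loader, were higher in the vestibule, at 1.25 (SE 0.29) and 0.76 (SE 0.18). The call of Rfc1 was lost without cochlea library 1, cochlea library 2 or vestibule library 2. Fen1, the flap endonuclease, was under the filter at 0.219 to 0.836 CPM and was not tested.

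Of 74 tested genes in a wider mitosis list, again 2 were higher in each tissue (5.41% called), and the median was 0.11. With library sizes alone, or at the looser threshold, 5 were higher in the vestibule, beside 18.7% and 19% of all genes. Bub3, of the spindle checkpoint, stood at 93.3, 91.6 and 82.8 CPM in the cochlea and 256, 248 and 293 CPM in the vestibule, and Nek2, a centrosomal kinase, at 9.32, 12.4 and 8.69 CPM against 25.9, 27.3 and 30.9 CPM. Neither overlapped, and the log2 fold changes were 1.57 (SE 0.13) and 1.47 (SE 0.18). Trip13, which takes checkpoint complexes apart, and the lamin gene Lmnb1 were higher in the cochlea, at -0.71 (SE 0.18) and -0.62 (SE 0.13). Trip13 lost its call without cochlea library 1 or any 1 of the vestibular libraries. Among 15 other E2F, MYB and MuvB factors only Mybl1, A-Myb, was called (6.67%), higher in the vestibule at 1.01 (SE 0.22), with a list median of -0.01.

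The brakes of the cycle, listed with the cyclin D genes and their kinases, were called at a share near that of all genes. Of 15 tested, 4 were higher in the cochlea and 1 in the vestibule, 33.3% called beside 27.4% of all genes, with a median of 0.13. Without cochlea library 2 or vestibule library 2 these counts were 1 and 0, without cochlea library 1 or vestibule library 1 they were 2 and 0, and without a filter on low counts the vestibular count was 0. In these omissions 6.5% to 8.63% of all genes were higher in the cochlea and 9.43% to 12.4% in the vestibule. Cdkn1b, the inhibitor p27Kip1 that keeps supporting cells and hair cells out of the cycle, stood at 119, 163 and 165 CPM in the cochlea and 77.3, 75.7 and 82.5 CPM in the vestibule, a log2 fold change of -0.93 (SE 0.15, FDR 0.00221 in the edgeR test). Cdkn1c, the related inhibitor p57Kip2, stood at 544, 564 and 552 CPM against 243, 323 and 401 CPM, a log2 fold change of -0.78 (SE 0.19). These inhibitors were thus higher in every cochlear library than in any vestibular one, and the call of Cdkn1c was lost without cochlea library 2 or vestibule library 2. The other tested inhibitors were not called. Their log2 fold changes were 0.14 (Cdkn1a), -0.42 (Cdkn2b), 0.14 (Cdkn2c) and 0.41 (Cdkn2d). The kinase Cdk4, which drives the cycle, was also higher in the cochlea (-0.49, SE 0.15), and of the pocket proteins that bind E2F factors Rbl1 was higher in the cochlea (-0.45, SE 0.15) and Rbl2 in the vestibule (0.44, SE 0.12), with an FDR of 0.0489 for Rbl1 and of 0.0259 for Rbl2 in the edgeR test. The calls of Cdk4, Rbl1 and Rbl2 were each lost without cochlea library 1, cochlea library 2, vestibule library 1 or vestibule library 2, that of Rbl1 also without vestibule library 3, with upper quartile scaling and with limma-voom, those of Cdk4 and Rbl1 with library sizes alone, and those of Rbl1 and Rbl2 without the filter.

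Marker lists of the cell types that the tissue can hold were read from the same fit, in which 11.6% of all genes were called higher in the cochlea and 15.8% higher in the vestibule. The libraries held 24464483 to 33664793 counts on genes. Hair cell markers, among which Myo6 and Otof had the highest mean levels, summed to 710 to 895 CPM in the cochlea and 1100 to 1300 CPM in the vestibule (1 of 12 higher in the cochlea, 6 in the vestibule), and supporting cell markers to 1490 to 1650 and 746 to 917 CPM (7 and 1 of 10), so markers of the labelled epithelia were detected in both. Macrophage markers were 139 to 164 CPM in the cochlea and 574 to 671 CPM in the vestibule (0 and 12 of 12), endothelial markers 283 to 348 and 522 to 693 CPM (1 and 8 of 11), mesenchymal markers 5710 to 6440 and 7990 to 9090 CPM (2 and 4 of 13), and Schwann cell markers 899 to 1180 and 1310 to 1760 CPM (3 and 3 of 12). Neuronal markers were 447 to 819 CPM in the cochlea and 197 to 412 CPM in the vestibule (6 and 0 of 12). Cartilage and bone markers (2 and 5 of 10 tested) and red blood cell markers (2 and 0 of 8 tested) overlapped in their sums, at 11800 to 19900 against 13800 to 16200 CPM and at 347 to 812 against 518 to 646 CPM. Skeletal muscle markers (1 and 0 of 6 tested) reached 336 CPM in cochlea library 3, in which most members were at their cochlear lowest, and 16 to 35.5 CPM in the other 5 libraries. In cochlea libraries 1, 2 and 3 the neuronal sums were 807, 819 and 447 CPM and the Schwann cell sums 1177, 1035 and 899 CPM, so both were lowest in library 3, as were the mesenchymal, macrophage and red blood cell sums among the cochlear libraries, while the hair cell, endothelial and cartilage and bone sums were highest there. Some of these gaps rested on 1 gene, left out after the values were seen. Without Otof the hair cell sums overlapped, at 656 to 798 CPM in the cochlea and 783 to 811 CPM in the vestibule, and without Col1a2 so did the mesenchymal sums, at 3400 to 4030 and 3600 to 4110 CPM. Without Kdr the endothelial sums (269 to 330 and 325 to 450 CPM) and without Syt1 the neuronal sums (310 to 697 and 165 to 374 CPM) overlapped too, while the supporting cell and macrophage sums stayed apart without Gjb2 and Mrc1. No marker was at 0 in all libraries. The part of these cells in the levels of the proliferation genes was not tested.

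Exons of 10 of the 40 members overlap those of another gene in the annotation used here, 8 of them on the other strand (Ccne2, Mcm7, Cdc45, Ccna2, Plk1, Kif20a, Nusap1 and Prc1) and 3 on the same one (Mcm7, Foxm1 and Top2a). The strand setting of the counting is not given in the sources used here, so the levels of these members are less certain. Mcm2, Mcm6, Mki67, Cenpf and Cenpe have no such overlap.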

How the data were processed

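RNA of 6 libraries was sequenced, 3 of cochlear and 3 of vestibular sensory epithelium. The submitters' processing notes name TopHat2 2.1.0, SAMtools 0.1.18, HTSeq 0.5.4p5, edgeR 3.4.2 and the build GRCm38. The authors deposited counts of read pairs on Ensembl genes, without scaling, and a matrix of log2 RPKM, which the counts reproduce with library sizes alone. Lines that name no gene (18.5% to 20.6% of the listed counts) were left out.

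The 14723 genes that reached 1 CPM in 3 libraries entered a fit with edgeR 4.0.16 under R 4.3.3 (TMM scaling, quasi-likelihood test, Benjamini-Hochberg adjustment over all of them, threshold 0.05), also tested on simulated data. No replicate block was used. Alternatives were other scalings and filters, DESeq2 1.42.0, limma-voom (limma 3.58.1), edgeR's exact test, a looser FDR (0.1) that requires a 1.3-fold change, a replicate block, leaving out each library, and, added after the data were seen, a spline of 5 degrees of freedom that removed each library's length trend. The libraries of a tissue differed by more than sampling noise, with a chi-square per degree of freedom of 31 to 111.

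The members and lists were chosen with earlier results of these data known. The rule for named genes took every called member, the 5 most abundant others per length, the role partners of called members, the 3 called genes with the largest change in each wider list and the 2 highest markers of a list. Other members, and the further called genes Rfc1, Lmnb1, Rbl1 and Rbl2 of the wider lists, were named after their values were seen. So were the uncalled inhibitors Cdkn1a, Cdkn2b, Cdkn2c and Cdkn2d. One listed symbol, H2az1, was not matched. Gene positions are those of GENCODE vM21 and promoter windows those of RefSeq. Plots come from matplotlib 3.10.9 (Python 3.11.15).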

Additional observations from a re-analysis of the deposited data

How the results depend on the processing

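Mcm2 was called under every alternative but the omission of vestibule library 2, and Mcm6 lost its call with upper quartile scaling, library sizes alone, no filter, the replicate block and all omissions but that of cochlea library 3. The members called higher in the cochlea (2) became 7 at an FDR of 0.1 that requires a 1.3-fold change and with the length correction (17.5% of the members, beside 14.5% and 17.4% of all genes), 4 with DESeq2 (10% beside 13.8%), 1 (2.5%) with library sizes alone, upper quartile scaling, no filter or the replicate block (8.5%, 10.9%, 8.05% and 6.85% of all genes), and 0 to 5 when a library was left out. Those higher in the vestibule (0) became 2 without the filter (Mki67 and Cenpf, 5% beside 11.3%), 1 (Cenpf, 2.5%) with DESeq2, the exact test, the looser threshold or the length correction (16.8%, 17.3%, 19% and 15.2% of all genes), and 0 to 3 when a library was left out. The labels do not say whether equal replicate numbers share animals, and in the paper both epithelia came from 20 inner ears. Correlations of the deviations from the tissue mean between libraries of equal number were -0.23, -0.29 and -0.52. They cannot decide on a pairing, since the length trends of the libraries enter them too. With the replicate block, genes called over all tested fell from 1711 to 1009 (6.85%) in the cochlea and from 2325 to 1609 (10.9%) in the vestibule. The block gave 1 of 74 mitosis genes and 2 of 15 brake genes in the cochlea. In the vestibule it gave 1 of 46 replication genes and 0 of 15 brake genes, since Rfc1, Trip13, Cdk4, Rbl1 and Rbl2 lost their calls. With a library left out, 925 to 1863 genes in all (6.5% to 12.8%) were higher in the cochlea and 1342 to 2694 (9.43% to 18.6%) in the vestibule.

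For the wider lists, the length correction gave 5 of 46 replication genes and 2 of 15 E2F, MYB and MuvB factors in the cochlea, beside 17.4% of all genes. Library sizes alone gave 2 of 15 brake genes in the cochlea, beside 8.5% of all genes. In the vestibule they gave 5 of 74 mitosis genes and 2 of the 15 factors, beside 18.7% of all genes. The looser threshold gave 5 and 2 there, limma-voom 2 of those factors, and no filter 0 brake genes in the vestibule. The shares of all genes higher in the vestibule were then 19%, 15.8% and 11.3%. With a library left out, calls in the cochlea were 1 to 2 for mitosis, 0 to 1 for the factors and 1 to 4 for the brakes, and in the vestibule 1 to 3 for replication and 0 to 1 for the brakes. The shares of all genes with a library left out are given above.

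The members whose sign turned were all uncalled at an FDR of 0.05. With library sizes alone Plk1 was 0.045, Foxm1 0.10, Top2a 0.0032, Birc5 0.074, Bub1 0.059, Bub1b 0.036, Cenpa 0.11, Kif11 0.039, Tpx2 0.081 and Nusap1 0.012. Cenpa was 0.0049 with upper quartile scaling. Aurkb was -0.0038 with RLE scaling, -0.0037 with DESeq2, -0.011 without the filter and -0.091 with the length correction, and E2f1 was -0.023 with that correction. Leaving out a library gave ranges of -0.016 to 0.21 (E2f1), -0.10 to 0.45 (Gmnn), -0.40 to 0.021 (Cdk1), -0.20 to 0.060 (Plk1), -0.21 to 0.17 (Aurkb), -0.13 to 0.12 (Foxm1), -0.30 to 0.013 (Top2a), -0.27 to 0.22 (Birc5), -0.22 to 0.075 (Bub1), -0.13 to 0.17 (Cenpa), -0.27 to 0.088 (Kif11), -0.16 to 0.11 (Tpx2) and -0.31 to 0.042 (Nusap1). With 1 library left out a tissue keeps 2, and the causes of these changes were not tested.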
